A study of Saccharomyces cerevisiae with 6 samples.

Results

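Cells make the purine and pyrimidine nucleotides of RNA, DNA and ATP from small precursors, and budding yeast keeps a separate gene for nearly every step. Both routes draw on phosphoribosyl pyrophosphate (PRPP), the activated sugar phosphate. In the purine route the ring is built on PRPP up to inosine monophosphate (IMP), which is then turned into AMP or GMP, and the ADE genes of this route are switched on together by the transcription factors Bas1 and Pho2 when adenine is scarce. In the pyrimidine route the ring is closed before PRPP is joined to it, giving uridine monophosphate (UMP) and from it UTP and CTP, and the regulator Ppr1 activates several of the URA genes when their intermediates build up. The 37 genes described here were chosen by name from these pathways, with earlier results of these data known. Of these, 21 serve purines, 10 serve pyrimidines, and 6 (the PRPP synthetase genes PRS1 to PRS5 and YNK1) serve both. The probe annotation named 34 of them among 5365 named genes, and IMD4, URA2 and URA3 were not analysed here. Values in all 3 replicates were had for 29 members (17 purine, 8 pyrimidine, 4 shared) of 3613 such genes, and a further 5 members had values in 2 replicates.

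The cells were Saccharomyces cerevisiae of strain S288C in the rich glucose medium YPD at 25 °C, in exponential growth at an optical density of 1. Treated cultures were held for 2 h with 5 mM thorium, a radioactive metal of the actinide series, and untreated cultures were grown on for 2 h with nothing added. On each array, polyA RNA of treated cells in Cy5 competed with polyA RNA of untreated cells in Cy3. The 3 arrays carry biologically independent samples. Scanning every array with a strong and a weak laser setting (high and low power) gave 6 scans, which make 3 replicates. Values are log2 ratios of Cy5 over Cy3, so above 0 is likely more RNA in thorium. The direction follows the channel order in the labels, base 2 was assumed, and no array had the dyes exchanged, so a dye effect and a thorium effect cannot be told apart. The ratios are relative to the other RNAs on the array, so a change common to most genes is not seen, and fewer cells with an RNA cannot be told apart from less of it per cell. Throughout, ± is the SD over the 3 replicates (n = 3) unless another n is given.

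As deposited, replicate 1 stood apart from the others. Over the 3613 genes its ratios had a Pearson correlation of 0.09 with replicate 2 and 0.02 with replicate 3, against 0.56 between replicates 2 and 3. Ratios also moved with the place of a probe on the array, read from the probe number as 192 sections. Across the 29 members the ratio correlated with the median of its own section at r = 0.72, 0.90 and 0.61 in replicates 1, 2 and 3 (over all genes 0.62, 0.69 and 0.68). Each gene is itself part of its section median, so these values are descriptions. Member values are therefore given as deposited and, for most members, also after the section median was subtracted (section-centred). Section-centred, replicate 1 correlated at 0.32 with replicate 2 and 0.24 with replicate 3, against 0.46 between replicates 2 and 3. The gap of replicate 1 was thus smaller after centring. ADE8, PRS1 and URA1 lay in 1 section, as did ADE17 with URA5, and FUR1 with URA10, and 1 of the 2 probes of BAS1 lay in the section of PRS5.

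No nucleotide gene passed limma's test against 0 after Benjamini-Hochberg adjustment at 0.05, as 0 of 29 members were called where 0% of the 3613 genes were. The smallest adjusted p was 0.271, for URA4. At an unadjusted p under 0.05, 4 members were lower in thorium, ADE2, ADE13, MTD1 and URA4, where 8.11% of all genes were. With each scan centred on its median, 1 member was lower at that level, but all genes were not counted in that setting. As deposited, 1 member was higher in thorium at that level, BAS1, where 5.7% of all genes were. Below 0 in all 3 replicates were 8 of the 29 members, 27.6%, close to the 23.2% of all genes. Above 0 in all 3 were 5 members, 17.2%, against 15.4% of all genes. As a whole the 29 genes had a median log2 ratio of -0.23, beside -0.09 over all genes tested.

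**Figure D1:**
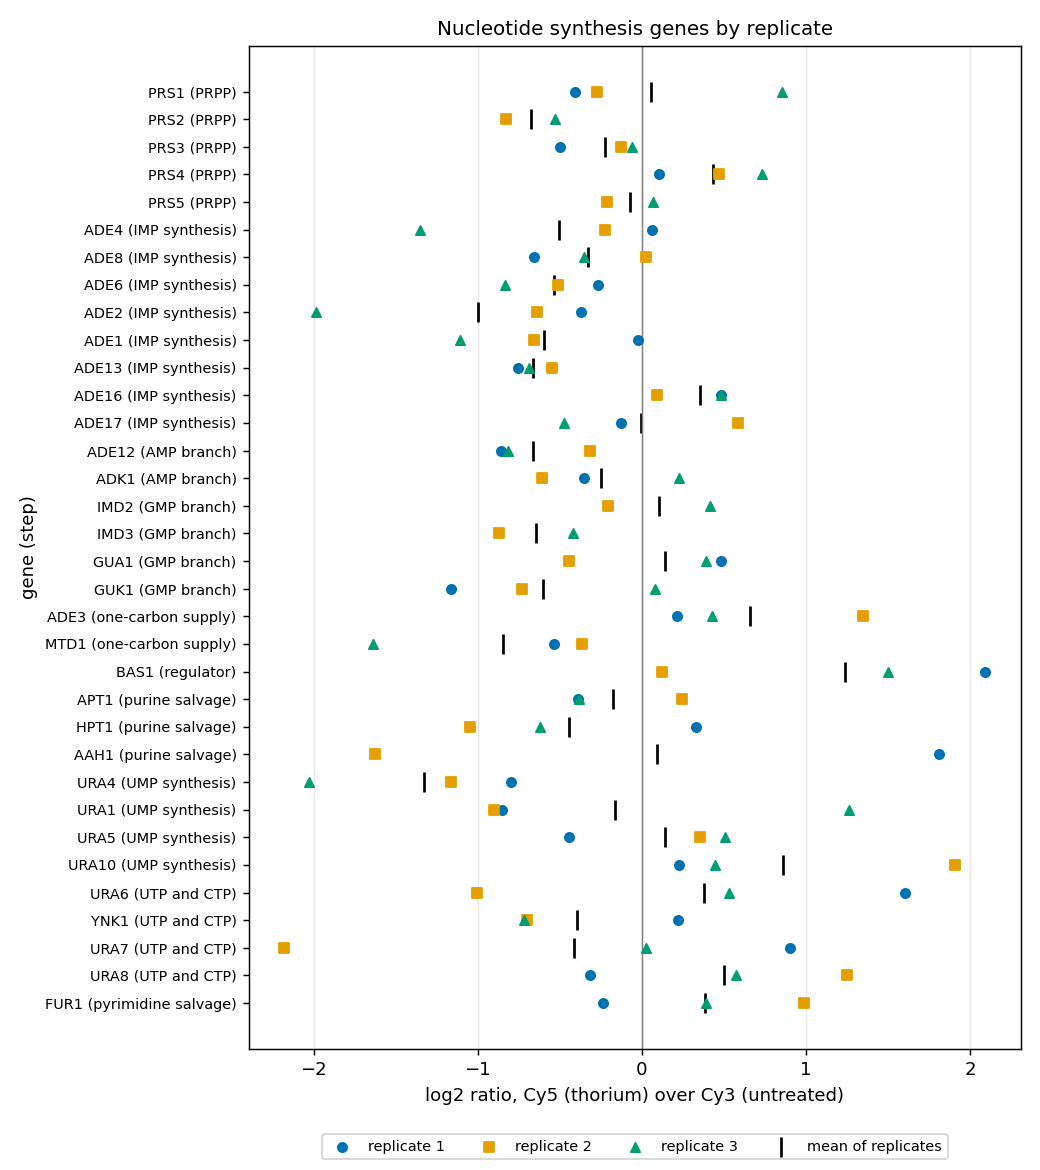
Log2 ratio of thorium over untreated (x axis) for the 34 members with a value (y axis, with the step each serves), 1 point for each replicate and a bar at the mean. Of the IMP synthesis genes ADE2, ADE6, ADE1 and ADE13 lie below 0 in every replicate, while BAS1, ADE3 and URA10 lie above 0 in every replicate and URA1 and URA7 spread across 0.

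Purine members with low means were spread over several steps. ADE2 of IMP synthesis had the lowest, followed by MTD1 of the folate supply and by ADE12 of the AMP branch. Of the 8 genes of IMP synthesis, 7 had means below 0, where 2042 of all 3613 genes did. Below 0 in every replicate were 4 of the 8, where 23.2% of all genes were. The median of the 8 means was -0.52, beside -0.09 over all genes. ADE2 (YOR128C), which encodes the carboxylase whose loss gives red colonies, stood at -0.37, -0.64 and -1.98 in replicates 1, 2 and 3. All its values lay below 0, and replicate 3 was far the lowest. Its mean was -0.999 ± 0.86, that is 2-fold lower, with a 95% interval from -1.93 to -0.07 (limma adjusted p = 0.338). Here and below, 95% intervals are not adjusted for the number of genes tested. They are printed only for members with an unadjusted p under 0.05, so each leaves out 0 by that choice. Intervals of the other members include 0, as for ADE12 with -1.35 to 0.02. After section-centring ADE2 read -1.32, 0.00 and -1.14. Its section stood at 0.94 in replicate 1. In replicate 2 ADE2 and its section median were both at -0.64, and ADE2 is part of that median. Without replicate 1 its mean was -1.31 (limma adjusted p = 0.0615).

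ADE1, the next enzyme in the route, stood at -0.02, -0.66 and -1.11, with a mean of -0.60 ± 0.55 (adjusted p = 0.443, limma). Replicate 1 was at about 0 and replicate 3 again the lowest, and section-centred ADE1 read 0.22, -0.44 and -1.37. ADE6, which adds the amide nitrogen of glutamine to the growing ring, stood at -0.27, -0.51 and -0.84 and averaged -0.54 ± 0.29 (adjusted p = 0.436). Its section median averaged -0.40, and section-centred it stood at -0.14 ± 0.12, below 0 in every replicate. ADE13, the adenylosuccinate lyase that acts both before IMP and in the AMP branch, had the smallest spread of these genes. It stood at -0.75, -0.55 and -0.69, with a mean of -0.66 ± 0.11, or 1.58-fold lower (95% interval -1.31 to -0.01, limma adjusted p = 0.358). In replicate 1 its section lay at -1.03, and section-centred ADE13 read 0.28, -0.67 and -0.70. Without replicate 1 the means were -0.62 for ADE13, -0.67 for ADE6 and -0.88 for ADE1.

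ADE4, the amidotransferase of the first committed step, differed between replicates, with 0.06, -0.23 and -1.35 and a mean of -0.50 ± 0.75. Replicate 3 alone was far below 0, and section-centred ADE4 read 0.19, 0.14 and -0.66. ADE8, which adds a formyl group, stood at -0.65, 0.02 and -0.35, with a mean of -0.33 ± 0.34. The isozymes ADE16 and ADE17 carry out the last steps to IMP. ADE16 stood at 0.48, 0.09 and 0.48 (mean 0.35 ± 0.23), above 0 in every replicate also after section-centring. Its scans of replicate 2 read -0.09 at high and 0.28 at low power. ADE17 stood at -0.13, 0.59 and -0.47, with a mean near 0 and an SD of 0.54. The difference of ADE16 minus ADE17 was 0.36 ± 0.76 over the replicates and changed sign between them, so the isozymes were not told apart at this spread. Probes of close paralogs, such as these, may share signal.

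The low values of IMP synthesis were clearest in replicate 3. There 7 of the 8 genes lay below 0 with a median of -0.76, where 53.2% of all genes lay below 0 and the median of all genes was -0.05. In replicates 1 and 2, 6 and 5 of the 8 lay below 0, near the 55.9% and 56.0% of all genes. The medians there were -0.20 and -0.37, beside -0.11 and -0.12 over all genes. Section-centring widened the gap between replicates. The median of the 8 genes was then -0.92 in replicate 3, with 7 of 8 below 0, where 50.6% of all genes were. It was 0.20 in replicate 1 and -0.03 in replicate 2. In replicate 3 the section-centred values were -1.37 for ADE1, -1.25 for ADE17, -1.23 for ADE8 and -1.14 for ADE2, and ADE16 alone among the 8 lay above 0, at 0.09. What set replicate 3 apart was not tested.

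In the AMP branch ADE12, the adenylosuccinate synthase that commits IMP to AMP, stood at -0.86, -0.32 and -0.82, with a mean of -0.66 ± 0.30 (adjusted p = 0.363, limma). It lay below 0 in every replicate, and after section-centring it still did, at -0.57 ± 0.32. Its scans of replicate 1 differed, with -0.39 at high and -1.32 at low laser power. ADK1, the adenylate kinase that phosphorylates AMP, stood at -0.36, -0.61 and 0.23, on both sides of 0, and section-centred at 0.53, -0.20 and -0.18.

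The GMP branch gave no common direction. GUK1, the guanylate kinase, stood at -1.16, -0.73 and 0.08, and its mean of -0.60 ± 0.63 came down to -0.20 ± 0.24 after section-centring. GUA1, the GMP synthase, stood at 0.48, -0.44 and 0.39, and section-centred at 0.17, 0.01 and 0.35. IMD2 and IMD3 encode IMP dehydrogenase, the gateway enzyme to GMP, and had no value in replicate 1. IMD3 stood at -0.87 and -0.42 in replicates 2 and 3, and section-centred at 0.09 and 0.14, with section medians of -0.96 and -0.56. IMD2 stood at -0.20 and 0.41, and section-centred at -0.17 and -0.09. IMD2 thus lay above IMD3, its close paralog, by 0.67 and 0.83 as deposited, but below it in both replicates after section-centring.

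The genes that supply the folate-bound carbon for the ring differed in sign. MTD1, the NAD-dependent methylenetetrahydrofolate dehydrogenase, stood at -0.54, -0.36 and -1.64, with a mean of -0.85 ± 0.69, or 1.8-fold lower (95% interval -1.69 to -0.01, limma adjusted p = 0.358). As for ADE2, replicate 3 was far the lowest, and after section-centring MTD1 read -0.33, 0.04 and -1.60. ADE3, the cytoplasmic enzyme that interconverts one-carbon folates, stood at 0.21, 1.35 and 0.43 instead, with a mean of 0.66 ± 0.60 (adjusted p = 0.412). Its high value in replicate 2 came with a section median of 0.97, and the scans of that replicate read 1.77 at high and 0.92 at low power. Section-centred ADE3 read 0.72, 0.37 and -0.09.

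BAS1 (YKR099W), the Myb-type activator of the ADE genes, had the highest mean of all members. It stood at 2.09, 0.13 and 1.498, above 0 in each replicate but near 0 in replicate 2. The mean was 1.24 ± 1.01, or 2.36-fold higher (95% interval 0.22 to 2.25, limma adjusted p = 0.299). Only 1 scan gave a value in each of replicates 1 and 2, and in replicate 3 the scans read 0.93 at high and 2.07 at low power. Without replicate 1 its mean was 0.81. The 2 probes of BAS1 held identical values in every scan although they lay in 2 sections, so they count as 1 measurement whose section is not settled. Section-centred on both, BAS1 read 0.49, 0.30 and 1.59. Against the section of the first probe it read -0.28 and 1.15 in replicates 2 and 3, with no section median in replicate 1, and against that of the second 0.49, 0.87 and 2.03.

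Purine salvage genes, which rebuild nucleotides from free bases, varied between replicates. HPT1, the hypoxanthine and guanine phosphoribosyltransferase, stood at 0.33, -1.05 and -0.62, and section-centred averaged -0.07 ± 0.40. APT1, the adenine phosphoribosyltransferase, stood at -0.39, 0.25 and -0.38, and section-centred averaged -0.04 ± 0.13. AAH1, the adenine deaminase, read 1.81 in replicate 1 and -1.63 in replicate 2, each in 1 scan, and had no value in replicate 3. Section-centred it read 0.72 and -0.85.

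On the pyrimidine side URA4 (YLR420W), the dihydroorotase that closes the ring, was the member farthest from 0. It stood at -0.80, -1.16 and -2.03, below 0 in every replicate and lowest in replicate 3. The mean was -1.33 ± 0.63, or 2.51-fold lower in thorium (95% interval -2.14 to -0.52, limma adjusted p = 0.271). Without replicate 1 its mean was -1.60 and it passed the threshold (adjusted p = 0.0360, limma), the sole member among 29 to do so, where 5.29% of the 3613 genes were called, 110 lower and 81 higher. Its section had medians of -0.05, -0.69 and -1.18 in replicates 1, 2 and 3, and section-centred URA4 read -0.80, -0.47 and -0.75, a mean of -0.67 ± 0.18. Its section median averaged -0.64, about as far below 0 as the centred gene. Section-centred in replicates 2 and 3 alone, a setting chosen after seeing the data, URA4 averaged -0.61 and was not called. In that setting limma called 0 members and 0 of all genes. The low power scans of replicates 1 and 3 gave no value for URA4. The section medians given are averages of both scans, so in those replicates they are not exactly what was subtracted.

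The other genes of UMP synthesis did not share that direction. URA1, the dihydroorotate dehydrogenase that acts right after URA4, stood at -0.86, -0.90 and 1.26, with a mean of -0.17 ± 1.24. Replicate 3 lay farther above 0 than the others lay below, and its section stood at 0.88 there. Section-centred URA1 read -0.36, -0.996 and 0.38. URA5 and URA10 encode isozymes of orotate phosphoribosyltransferase. URA10, the minor isozyme, stood at 0.23, 1.91 and 0.45, above 0 in every replicate, with a mean of 0.86 ± 0.91 (adjusted p = 0.383, limma). Section-centred it stood at 0.44 ± 0.40, still above 0 in each. The scans of URA10 in replicate 1 read -0.11 at high and 0.56 at low power. URA5, the major isozyme, stood at -0.45, 0.36 and 0.51, and section-centred averaged -0.05 ± 0.19. As deposited, URA5 minus URA10 was -0.72 ± 0.81, a difference smaller than its spread. Among the genes known as targets of Ppr1, URA4 thus lay below 0 in every replicate, URA10 above 0 in every replicate and URA1 on both sides.

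From UMP onward, URA6, the uridylate kinase, stood at 1.61, -1.005 and 0.53 on a single scan each, and section-centred at 0.84, 0.21 and 1.00. Without replicate 1 the mean of URA6 changed from 0.38 to -0.24. URA7 and URA8, the CTP synthase isozymes, gave opposite orders in different replicates. URA7 stood at 0.91, -2.18 and 0.02, and URA8 at -0.31, 1.25 and 0.57. In replicates 2 and 3 URA7 had a value in the high power scan alone. Their difference of URA7 minus URA8 was -0.92 ± 2.35. In replicate 2 the sections of these genes had medians of -1.18 and 0.85, and section-centred means were 0.02 ± 0.77 for URA7 and 0.25 ± 0.14 for URA8. FUR1, the uracil phosphoribosyltransferase of salvage, stood at -0.24, 0.99 and 0.39, but its scans disagreed, with -1.08 and 0.61 in replicate 1 and 1.52 and 0.46 in replicate 2. Section-centred FUR1 was at -0.04 ± 0.09.

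Among the shared genes, PRS4 stood at 0.11, 0.47 and 0.73, above 0 in every replicate with a mean of 0.44 ± 0.32, and PRS3 at -0.50, -0.12 and -0.06, below 0 in every replicate with a mean of -0.23 ± 0.24. These genes encode subunits of PRPP synthetase. The high and low power scans of PRS4 read -0.22 and 0.44 in replicate 1, and 0.92 and 0.02 in replicate 2. Those of PRS3 read 0.08 and -0.20 in replicate 3. Section-centring turned PRS4 to -0.19 ± 0.40 and left PRS3 at -0.19 ± 0.05. PRS1 stood at -0.41, -0.27 and 0.86, and section-centred averaged -0.10 ± 0.23. PRS2 stood at -0.83 and -0.53 in replicates 2 and 3, but section-centred at -0.15 and 0.72, so that its mean turned from -0.68 to 0.29. PRS5 stood at -0.21 and 0.07, and section-centred at -0.48 and -0.29. YNK1, the nucleoside diphosphate kinase, stood at 0.22, -0.70 and -0.72, with a mean of -0.40 ± 0.54, and section-centred -0.13 ± 0.30.

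**Figure D2:**
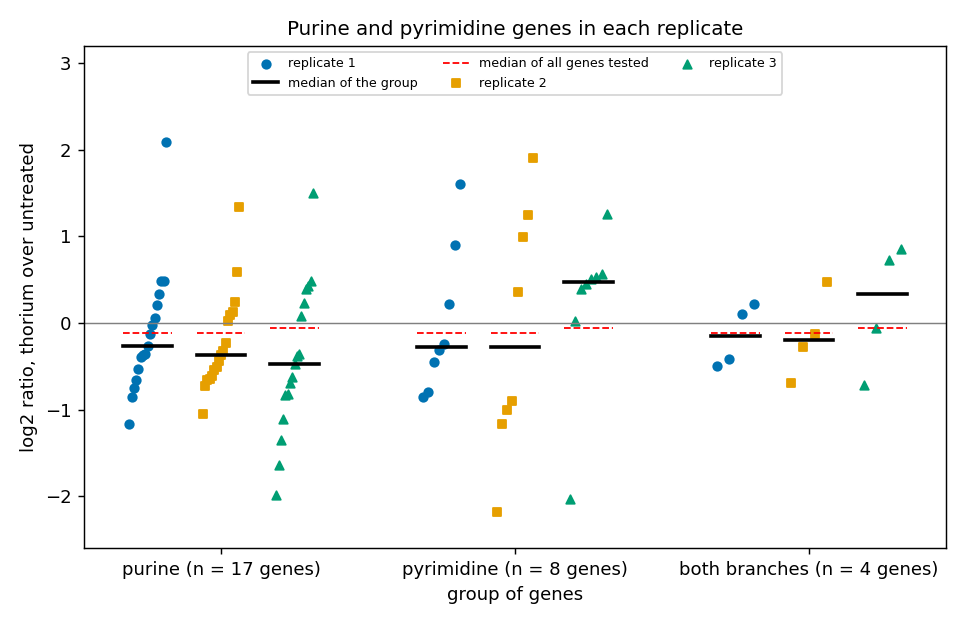
Log2 ratio (y axis) of the 17 purine, 8 pyrimidine and 4 shared genes with values in all replicates, 1 point for each gene, by replicate. Black bars are group medians and dashed red bars the medians of all 3613 genes: the purine medians lie at -0.27, -0.36 and -0.47, and the pyrimidine medians at -0.28, -0.27 and 0.48.

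Purine and pyrimidine genes were then compared within each replicate. Purine medians were -0.27, -0.36 and -0.47 in replicates 1, 2 and 3, all below the medians of all genes, which were -0.11, -0.12 and -0.05. Pyrimidine medians were -0.28, -0.27 and 0.48, below all genes in replicates 1 and 2 and above them in replicate 3. The difference of purine minus pyrimidine medians was 0.01, -0.09 and -0.95, a mean of -0.34 ± 0.53 (SD, n = 3), which is smaller than its spread. The medians thus lay apart in replicate 3 alone: without replicate 3 the difference was -0.04, and without replicate 1 it was -0.52. Of the 17 purine genes 6 (35.3%) lay below 0 in every replicate and 3 above, and of the 8 pyrimidine genes 1 (12.5%) lay below and 1 above. Over the 3613 genes 23.2% lay below and 15.4% above. Section-centred, the purine medians were 0.19, -0.07 and -0.28, the pyrimidine medians 0.09, 0.02 and 0.17, and the mean difference -0.15. Members are not replicates of a condition, so no test was made across them.

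**Figure D3:**
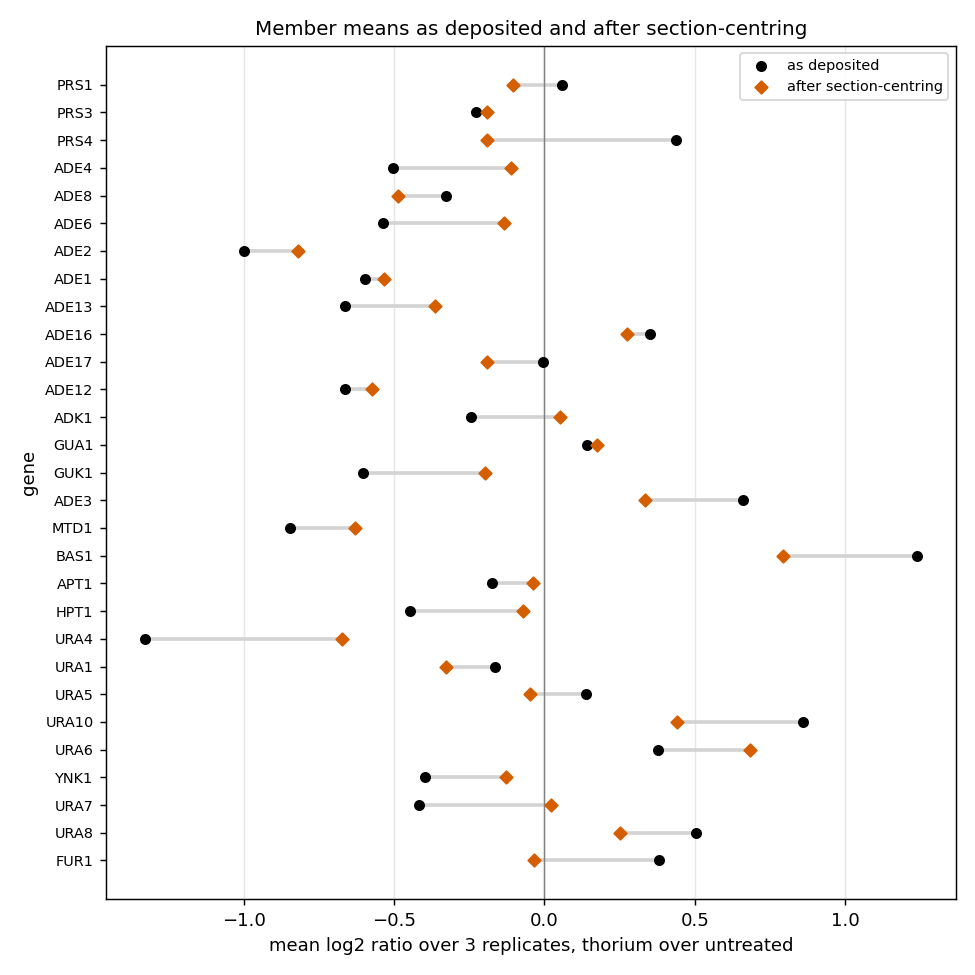
Mean log2 ratio over the 3 replicates (x axis) of the 29 members measured in all replicates (y axis), as deposited (black circles) and after section-centring (orange diamonds). URA4 goes from -1.33 to -0.67, PRS4 changes sign, and the centred means run from -0.82 for ADE2 to 0.79 for BAS1.

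After section-centring 5 members lay below 0 in every replicate, PRS3, ADE8, ADE6, ADE12 and URA4, which is 5 of 29 beside 23.2% of 3604 genes. Of the 13 members with 1 sign throughout as deposited, 7 kept 1 sign in all replicates, BAS1 among them when its 2 sections are averaged. The share of all genes that kept 1 sign was not counted, so this is no result about the members. The means of PRS1, PRS4, ADK1, URA5, URA7 and FUR1 changed sign.

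**Figure D4:**
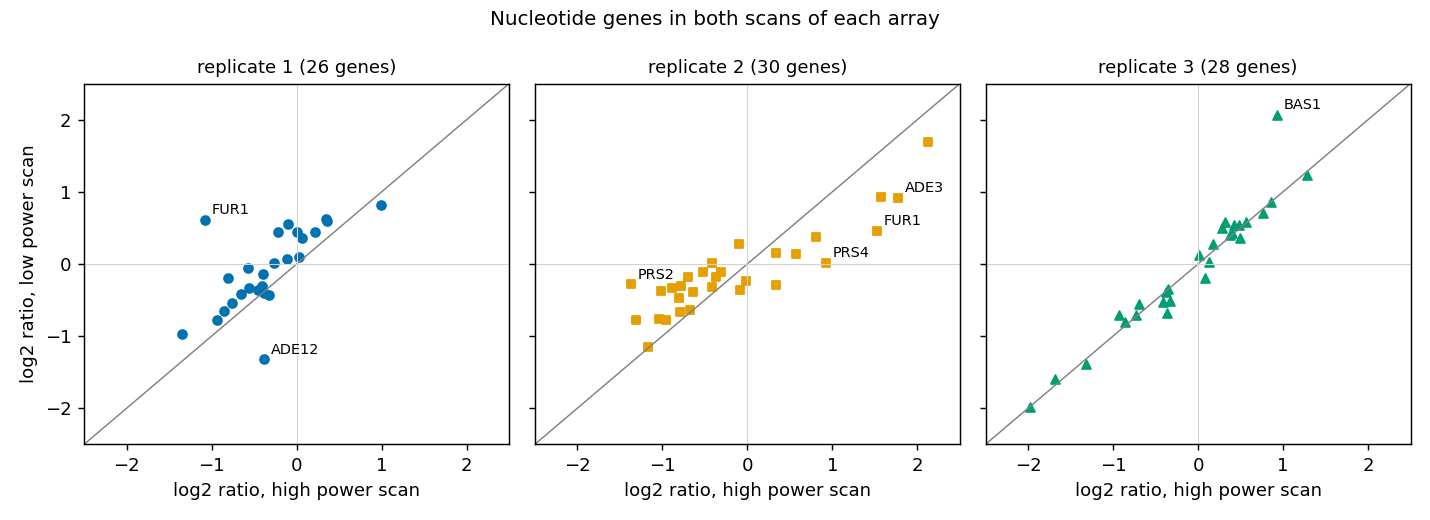
Log2 ratio of each member in the high power scan (x axis) against the low power scan (y axis) of the same array, with 26, 30 and 28 genes in replicates 1, 2 and 3, and the line of equality. Names mark genes whose scans differ by more than 0.8: FUR1 and ADE12 in replicate 1, PRS2, ADE3, FUR1 and PRS4 in replicate 2, and BAS1 in replicate 3.

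The scans of an array were compared next. Values in all 6 scans were had for 23 members. In limma's test of the mean of high minus low power, 0 of them shifted in 1 direction, where 0.0949% of 2108 genes did. The smallest limma adjusted p was 0.929, and 0 members passed at an unadjusted p under 0.05. Opposite differences cancel in that mean, so scans that disagree are not excluded. For FUR1, high minus low was -1.70, 1.06 and -0.22 in replicates 1, 2 and 3. In replicate 3 the scans of ADE2 read -1.98 and -1.99, those of MTD1 -1.69 and -1.59, and those of ADE4 -1.31 and -1.39. The low values of these 3 genes in that replicate were thus present at both laser powers, while ADE1 and ADE13 had a value there in the low power scan alone.

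Other genes of the same pathways, from lists drawn up by name, gave no call either, since limma called 0 genes of all tested. The list of folate, glycine, histidine and glutamine genes, several of them known targets of Bas1 and Pho2, had a median of -0.28 over 9 genes. In every replicate 3 lay below 0 and 0 above, where 23.2% and 15.4% of all genes did. In replicate 3 the list's median was -0.05, beside -0.05 over all genes, and 5 of the 9 genes lay below 0 (53.2% of all genes). Single genes differed widely there. GCV1, GCV2 and GCV3, subunits of the glycine cleavage complex, stood at -1.33, -1.37 and -1.34, while LPD1, the other subunit, stood at 0.33. In replicates 1 and 2, GCV1 stood at -0.11 and -0.62, GCV2 at 0.47 and 0.38, GCV3 at -0.33 and -0.85, and LPD1 at -0.65 and 0.21. Section-centred, replicate 3 read -1.58 for GCV1, -1.82 for GCV2, -1.14 for GCV3 and 0.21 for LPD1. HIS1, the first enzyme of histidine synthesis, stood at 0.06, -1.15 and -1.44, and section-centred at -0.22, -0.22 and -0.51. SHM2, the cytosolic serine hydroxymethyltransferase, stood at -1.01 and -2.16 in replicates 2 and 3, and section-centred at -0.32 and -1.30. HIS7 stood at -1.08 and -2.10, and section-centred at -0.51 and -1.36, with no value for SHM2 or HIS7 in replicate 1. The mitochondrial enzymes gave other patterns, as SHM1 stood at -0.64, -0.14 and -0.05, and MIS1 at -1.71 and -0.45 in replicates 2 and 3. GLN1, the glutamine synthetase, stood at -1.58 and -0.41 in replicates 1 and 2 and at about 0 in replicate 3. HIS4, another target, stood at -0.21, 1.14 and 0.51, and PHO2, the partner of BAS1, stood at 0.59, -0.12 and 0.72.

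**Figure D5:**
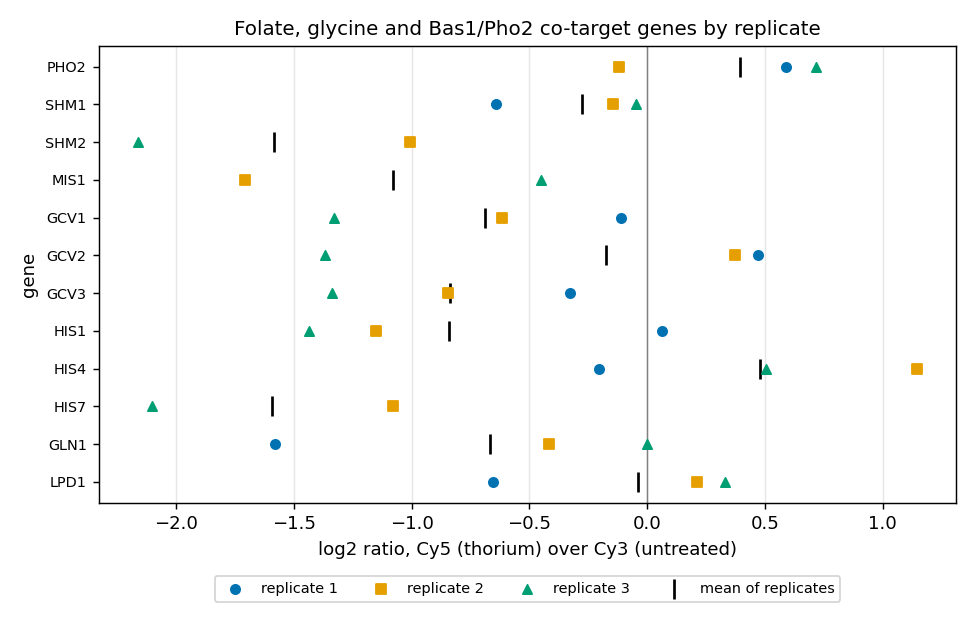
Log2 ratio (x axis) of the 12 folate, glycine, histidine and related genes with a value, PHO2 among them (y axis), 1 point for each replicate and a bar at the mean. In replicate 3 SHM2, HIS7, HIS1, GCV1, GCV2 and GCV3 lie between -2.16 and -1.33, MIS1, SHM1 and GLN1 between -0.45 and about 0, and LPD1, HIS4 and PHO2 above 0.

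Genes of purine transport, salvage and breakdown had a median of -0.04 over 10 genes. In every replicate 0 lay below and 3 above 0, where 23.2% and 15.4% of all genes did. The nicotinamide riboside transporter NRT1 stood at 0.27, 1.19 and 0.83, a mean of 0.76 ± 0.46 (section-centred 0.44 ± 0.13). MEU1, which recycles methylthioadenosine, stood at 0.34, -1.88 and -1.40 (section-centred mean -0.49 ± 0.69). Its scans of replicate 2 were far apart, with -3.01 at high and -0.75 at low power. PNP1, the purine nucleoside phosphorylase, stood at 0.80 and 1.30 in replicates 2 and 3, and section-centred at 0.69 and 0.50. Pyrimidine transport, salvage and control genes had a median of 0.11 over 6 genes, none with 1 sign throughout. The uridine kinase URK1 stood at 0.88 and 1.39 in replicates 2 and 3, and section-centred at 0.28 and 1.18. The PPR1 regulator gene had a value in replicate 1 alone, 2.60 in 1 scan, and 0.95 section-centred. Deoxynucleotide genes had a median of 0.02 over 6 genes. RNR1, the large subunit of ribonucleotide reductase, stood at -0.53, -0.51 and -0.42, with a mean of -0.49 ± 0.06 (adjusted p = 0.446, limma). Section-centred it stood at -0.60, -0.68 and -0.07, and in replicates 1 and 2 it had a value in the high power scan alone. RNR2, a small subunit gene, stood at 0.29, 1.08 and 0.31, and section-centred averaged 0.10 ± 0.24.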

How the data were processed

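The authors deposited 1 value per spot and scan, taken here as a log2 ratio; per the labels, flagged spots were left out and LOWESS normalization was applied. Scan medians over all probes ran from -0.16 to 0.01, so the scans were not fully centred. The sources used here do not give the image software or background correction. Of 6912 probes 5513 carried 1 gene symbol, 1399 are unnamed here and 0 carried several; 5360 of 5365 genes matched a RefSeq table (assembly R64) by Entrez ID. Values were averaged over a gene's probes and then over both scans of its array. High power scans gave 4198 to 5483 probes with a value and low power scans 2782 to 4552; precision is limited by having 3 arrays. Genes present in all 3 replicates were tested against 0 with limma 3.58.1 in R 4.3.3 (lmFit, eBayes, 2-sided; 2 residual and 4.43 prior degrees of freedom) with Benjamini-Hochberg adjustment over 3613 genes. The script was tested on simulated data.

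For section-centring, probes sharing the first 3 digits of their number were taken as a section, a layout that is inferred. The section's median (at least 5 genes with 1 probe each) was taken off in each scan. Section medians are printed as averages of both scans, so for a gene with a value in 1 scan they can differ from what was subtracted. Values per replicate were to be given for members with 1 sign throughout or an absolute mean of at least 0.5 and for all ADE and URA genes, and up to 4 leading genes for each other list; the further genes of those lists were named after their values were seen. Members, lists and alternatives were chosen with earlier results of these data known. The alternatives were each scan power, each replicate left out, all scans with a replicate block, other centrings, filters, priors and thresholds.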

Additional observations from a re-analysis of the deposited data

How the results depend on the processing

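No setting with all 3 replicates gave a call among the members. Leaving out each replicate in turn gave 0 to 1 member called and 0 to 191 of all genes, with 1 and 191 without replicate 1. With replicates 2 and 3 section-centred, both counts were 0. It gave 0 to 9 members lower and 0 to 3 higher at an unadjusted p under 0.05 (main 4 and 1). Members above 0 throughout then numbered 5 to 8 (main 5), where fewer replicates make that count larger by construction. Beyond the main setting, all genes were not counted at an unadjusted p, and for 1 sign throughout only under section-centring. Member counts given here without a share of all genes are thus not results about the members. High power scans alone gave 2 members above 0 in every replicate. All 6 scans with a replicate block gave 2 members higher at an unadjusted p under 0.05. It also gave 2 members above 0 in every scan with a value, a stricter count than over the 3 replicates. Treated and untreated RNA were paired on each array, and the ratio tested is that pair. Median centring left 1 member lower at that p, and quantile normalization gave 2 higher. Requiring both scans of all 3 replicates kept 23 of the 29 members, and left 5 below 0 throughout and 0 higher. The ratios of the kept members did not change. ADE1, ADE13 and URA4, below 0 throughout in the main setting, and BAS1, its 1 higher member, were among those dropped. Section-centring moved the purine median from -0.37 to -0.0531 (-0.17 in replicates 2 and 3, a setting chosen after seeing the data), and left 5 members and 3 purine members below 0 throughout and 2 higher. The purine minus pyrimidine difference kept its sign in the settings run, from -0.04 without replicate 3 to -0.76 with both scans required, while the pyrimidine median ran from -0.27 to 0.40. Member means with the other sign numbered 6 of 29 under section-centring. Apart from members dropped by a filter, the cause of these moves was not tested.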
